A study of Drosophila melanogaster with 3 samples.

Results

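The ecdysone receptor genes and the transcription factor genes that respond to the hormone first were described in a chromatin immunoprecipitation and sequencing (ChIP-seq) study of the Chiffon protein in Drosophila melanogaster embryos. The 10 genes were taken by their Ensembl symbols, EcR, usp, br, Eip74EF, Eip75B, Eip93F, Hr3, Hr4, Hr39 and ftz-f1, out of 13945 protein-coding genes on 6 chromosome arms. All samples came from a transgenic line, chif-RA-GFP, that stably expressed the protein of the chif-RA transcript with GFP at its C terminus, and chromatin was pulled down with an antibody against GFP. The single group held 3 biological replicates of whole embryos, males and females pooled, collected at 0 to 24 h of age. The lists therefore average over all cells and stages of embryogenesis, and a tagged protein made from a transgene stood for Chiffon. A control library was not analysed here, and there was no second condition to compare with.

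Chiffon is the fly counterpart of Dbf4, the subunit that activates the Cdc7 kinase at the start of DNA replication, and another product of the chif gene works with the histone acetyltransferase Gcn5. Which of these products the regions reflect cannot be read from the lists. The steroid hormone ecdysone enters cells and binds a heterodimer of nuclear receptors, EcR and Usp, which then switches on a small set of early genes. The early genes encode transcription factors that turn on late genes and limit their own expression, and a later wave of nuclear receptors sets the time of the next response. A pulse of the hormone in mid-embryogenesis is known to be needed for germ band retraction, head involution and cuticle formation.

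Each locus was the gene body plus 1000 bp around every annotated start. The authors' list of reproducible regions, selected by the irreproducible discovery rate (IDR), held 3684 regions, and the pooled list made from all replicates together held 25066. Within the 10 loci there were 30 IDR regions and 171 pooled regions. The sequence 100 bp to either side of an IDR summit is shown for 5 genes, since these summits are high within their own locus. The summit shown is the strongest of the gene for br, Eip93F, Hr4 and ftz-f1. In the whole IDR list the Eip93F region was low, at rank 3137 of 3684. The sequences are on the strand of the gene in dm6. Capitals mark the only match in these windows to any motif searched, GAGAG in either orientation. For Eip75B the second strongest region is shown because the window of the strongest one covers an annotated 5' UTR, and usp is left out for the same reason. The windows of EcR and Hr3 are not printed because sequence from the arm that carries them was left out throughout.
br region 1, chrX:1618747-1618947, plus strand: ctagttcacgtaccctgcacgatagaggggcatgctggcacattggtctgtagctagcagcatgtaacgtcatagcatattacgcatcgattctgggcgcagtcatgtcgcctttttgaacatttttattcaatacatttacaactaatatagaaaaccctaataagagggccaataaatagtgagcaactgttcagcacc
Eip75B region 2, chr3L:18009070-18009270, minus strand: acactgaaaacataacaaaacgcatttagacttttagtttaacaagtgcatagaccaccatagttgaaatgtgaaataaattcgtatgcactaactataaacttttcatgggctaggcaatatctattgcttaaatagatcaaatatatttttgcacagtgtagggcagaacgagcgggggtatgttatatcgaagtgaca
Eip93F region 1, chr3R:21993007-21993207, plus strand: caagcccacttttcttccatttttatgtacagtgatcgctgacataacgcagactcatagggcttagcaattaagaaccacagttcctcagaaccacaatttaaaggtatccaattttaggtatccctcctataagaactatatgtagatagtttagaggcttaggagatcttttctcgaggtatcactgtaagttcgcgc
Hr4 region 1, chrX:1947647-1947847, plus strand: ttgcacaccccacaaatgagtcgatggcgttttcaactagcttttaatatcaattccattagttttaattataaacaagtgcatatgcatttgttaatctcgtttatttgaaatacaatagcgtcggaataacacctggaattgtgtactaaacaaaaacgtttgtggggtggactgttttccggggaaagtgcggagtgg
ftz-f1 region 1, chr3L:18784676-18784876, minus strand: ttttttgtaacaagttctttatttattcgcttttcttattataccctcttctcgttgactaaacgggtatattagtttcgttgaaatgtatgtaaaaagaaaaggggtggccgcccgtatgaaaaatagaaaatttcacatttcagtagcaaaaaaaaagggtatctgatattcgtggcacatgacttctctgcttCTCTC

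The windows were AT-rich: the GC content was 42.8% for br, 34.3% for Eip75B, 39.8% for Eip93F, 37.8% for Hr4 and 34.3% for ftz-f1. Over the summit windows of all 30 regions the GC content ran from 25.4% to 57.2% with a median of 37.8%. The median of all IDR windows was 36.3%, and that of the 20865 pooled regions that overlapped no IDR region was 45.3%.

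The binding letters of the nuclear receptors themselves were searched on both strands. The half-site AGGTCA, the hexamer bound by EcR-Usp and other nuclear receptors, occurred in 0 of 30 windows of 100 bp either side, beside 3.91% of all IDR windows. Over 200 bp either side, which takes in the whole region, 6 of 30 windows (20%) held it, beside 7.52% of all IDR windows. Of the 6, 4 were in Hr4 (regions 3, 4, 8 and 10), 1 was in Eip75B (region 7) and 1 was the single Eip93F region. Hr4 regions 3 and 4 had ranks of 444 and 1204 in the IDR list of 3684. The others were low in it: Hr4 regions 8 and 10 at 3178 and 3564, Eip75B region 7 at 3654 and the Eip93F region at 3137. The inverted repeat of GGTCA and TGACC with 1 base between them is the core of the ecdysone response element. It occurred within 200 bp of 2 of the 3684 IDR summits. Of these 1 was Hr4 region 8, where the repeat began 104 bp downstream of the summit and overlapped the half-site counted there. That match is shown with 10 bases either side and the repeat in capitals, followed by the half-site of the Eip93F region, which began 143 bp upstream of its summit.
Hr4 region 8, X, plus strand: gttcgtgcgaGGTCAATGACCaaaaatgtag
Eip93F region 1, 3R, plus strand: actcagtcatAGGTCAgaccacccat

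A match of letters describes the sequence and is not a measured binding site. The extended half-site AAGGTCA was held by 3 of 30 wide windows (10%), beside 2.96% of all IDR regions. All 3 matches, in Eip75B region 7 and Hr4 regions 4 and 10, were at half-sites already counted above. The longer Ftz-F1 site TCAAGGTCA and the Zelda heptamer CAGGTAG were found in 0 of 30, beside 0.271% and 2.01%. The DRE letters TATCGATA, a palindrome bound by Dref and BEAF-32, were also found in 0 of 30 wide windows, beside 5.62%. GAGAG, the core letters of the GAGA factor site, was held by 8 of 30 windows of 100 bp either side (26.7%), beside 22.1% of all IDR windows. The 8 were Hr3 regions 1, 3 and 4, Hr4 regions 3, 5 and 9, Eip75B region 1 and ftz-f1 region 1. In wide windows GAGAG was held by 13 of 30 (43.3%), beside 44.5% of all IDR regions. The E-box CACGTG was in 0 of 30 narrow windows, beside 2.44%, and in 1 of 30 wide windows (3.33%), beside 5.43%.

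IDR regions were present at 8 of the 10 genes, while 21.9% of all protein-coding genes had one in the locus. Locus length has to be read beside that count. Among loci of 30 kb or more 52.7% had an IDR region, among loci of 10 to 30 kb 41.1% did, and among shorter loci 17.7% did. The 10 genes were mostly long: 8 had a locus of 30 kb or more and 7 of these had an IDR region, usp at 4.51 kb had 1, and Hr39 at 23.4 kb had 0. The 8 long loci held a median of 3 IDR regions each, beside a median of 1 over all 694 long loci. The regions were spread unevenly, with 10 at Hr4, 7 at Eip75B, 4 each at Hr3 and ftz-f1, 2 at EcR, and 1 each at usp, br and Eip93F. Of the 8 long loci 4 had 4 or more IDR regions, beside 13.5% of all long loci. Eip74EF and Hr39 had none.

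**Figure D1:**
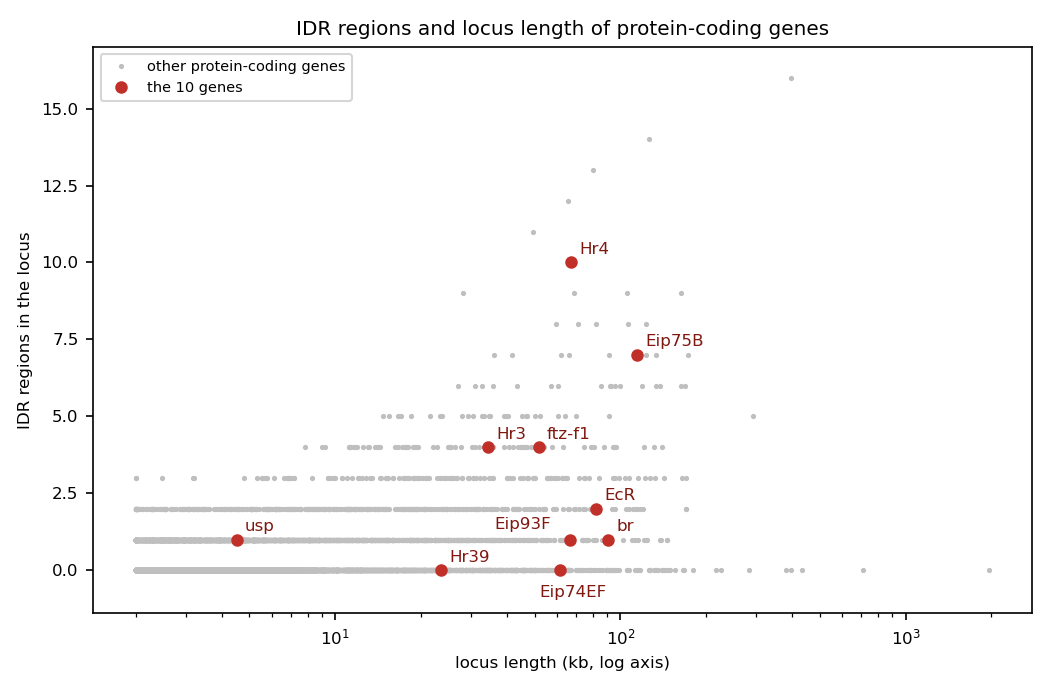
IDR regions in the locus (vertical axis) against locus length in kb (log axis) for all 13945 protein-coding genes, grey, and the 10 ecdysone genes, red and named. Hr4 with 10 regions and Eip75B with 7 stand high for their length, and Eip74EF and Hr39 sit at 0.

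Counted by length, the 8 long loci carried 5.10 IDR regions per 100 kb, and all protein-coding loci of 30 kb or more carried 2.20. The same density was taken from the 3684 highest regions of each replicate list. For the 8 loci the 3 replicates in turn gave 5.45, 6.15 and 5.27 per 100 kb, with a mean of 5.63 ± 0.465 (SD, n = 3). For all long loci it was 2.15, 2.16 and 2.24, a mean of 2.19 ± 0.0503 (SD, n = 3). These SDs are over replicate lists of the same loci and do not measure the spread among genes. Among the 8 long loci the IDR density per 100 kb was 0 at Eip74EF, 1.10 at br, 1.51 at Eip93F and 2.43 at EcR. It was 6.10 at Eip75B, 7.74 at ftz-f1, 11.6 at Hr3 and 14.9 at Hr4. Hr4 supplied 10 of the 30 IDR regions, so the density was also taken without it, an alternative chosen after seeing the data: the other 7 loci carried 3.79 IDR regions per 100 kb, and 4.18, 5.18 and 4.58 of the highest regions in the 3 replicates. The 10 genes were chosen as a pathway with earlier results of these data known, and no test was made over them.

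**Figure D2:**
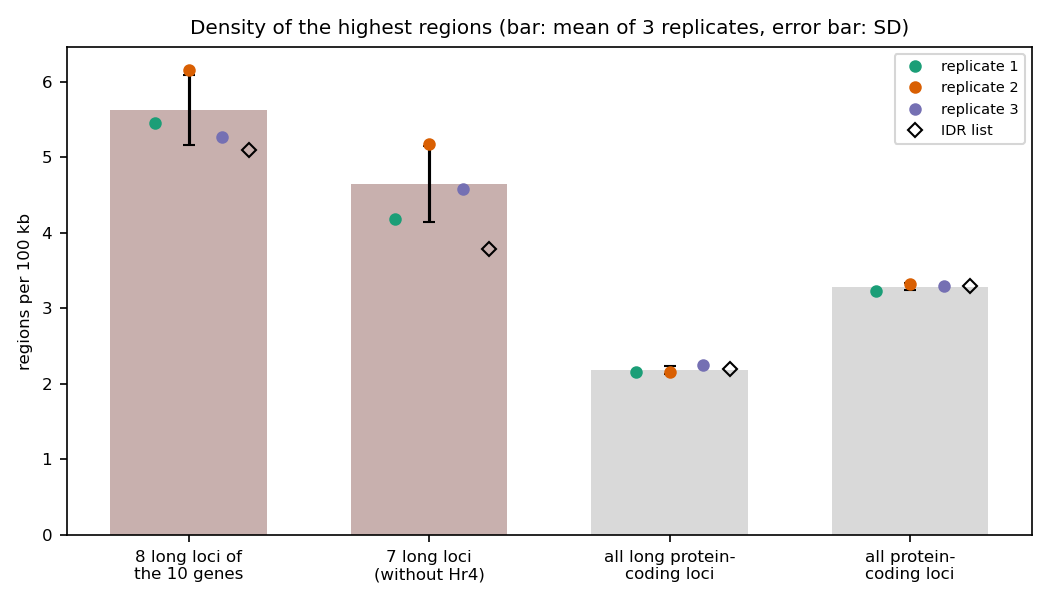
Highest regions per 100 kb of locus (bars: mean of 3 replicates; error bars: SD; circles: each replicate; diamonds: the IDR list) in the 8 long loci of the 10 genes, in the 7 without Hr4, in all protein-coding loci of 30 kb or more and in all protein-coding loci. All 3 replicates of the 8 loci lie above 5 per 100 kb, and all long loci lie near 2.19.

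Most regions lay in introns, as they did in long genes at large. Of the 30 IDR summits 27 were in an intron, all in the 8 long loci, where they made up 27 of 29 (93.1%), beside 85.6% of the IDR regions of all protein-coding loci of 30 kb or more. Likewise 27 of the 29 (93.1%) were over 1000 bp from every start of their own gene, beside 74.1% in all long loci. Counting the starts of all genes, 25 of 30 (83.3%) were over 1000 bp away, beside 42.8% of all IDR summits. The latter set is not limited to long loci. An IDR summit within 1000 bp of an own start was found at 3 of the 10 genes, EcR, usp and Eip75B, beside 17.6% of protein-coding genes. These genes have many alternative starts, 36 in all, and 4 of the 36 (11.1%) had an IDR summit within 1000 bp, beside 17.4% of the 19607 starts of protein-coding genes. In the pooled list, which holds weaker regions, 18 of 36 starts (50%) had one, beside 56.1%. None of the 9 starts of br and neither start of Hr4 did.

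**Figure D3:**
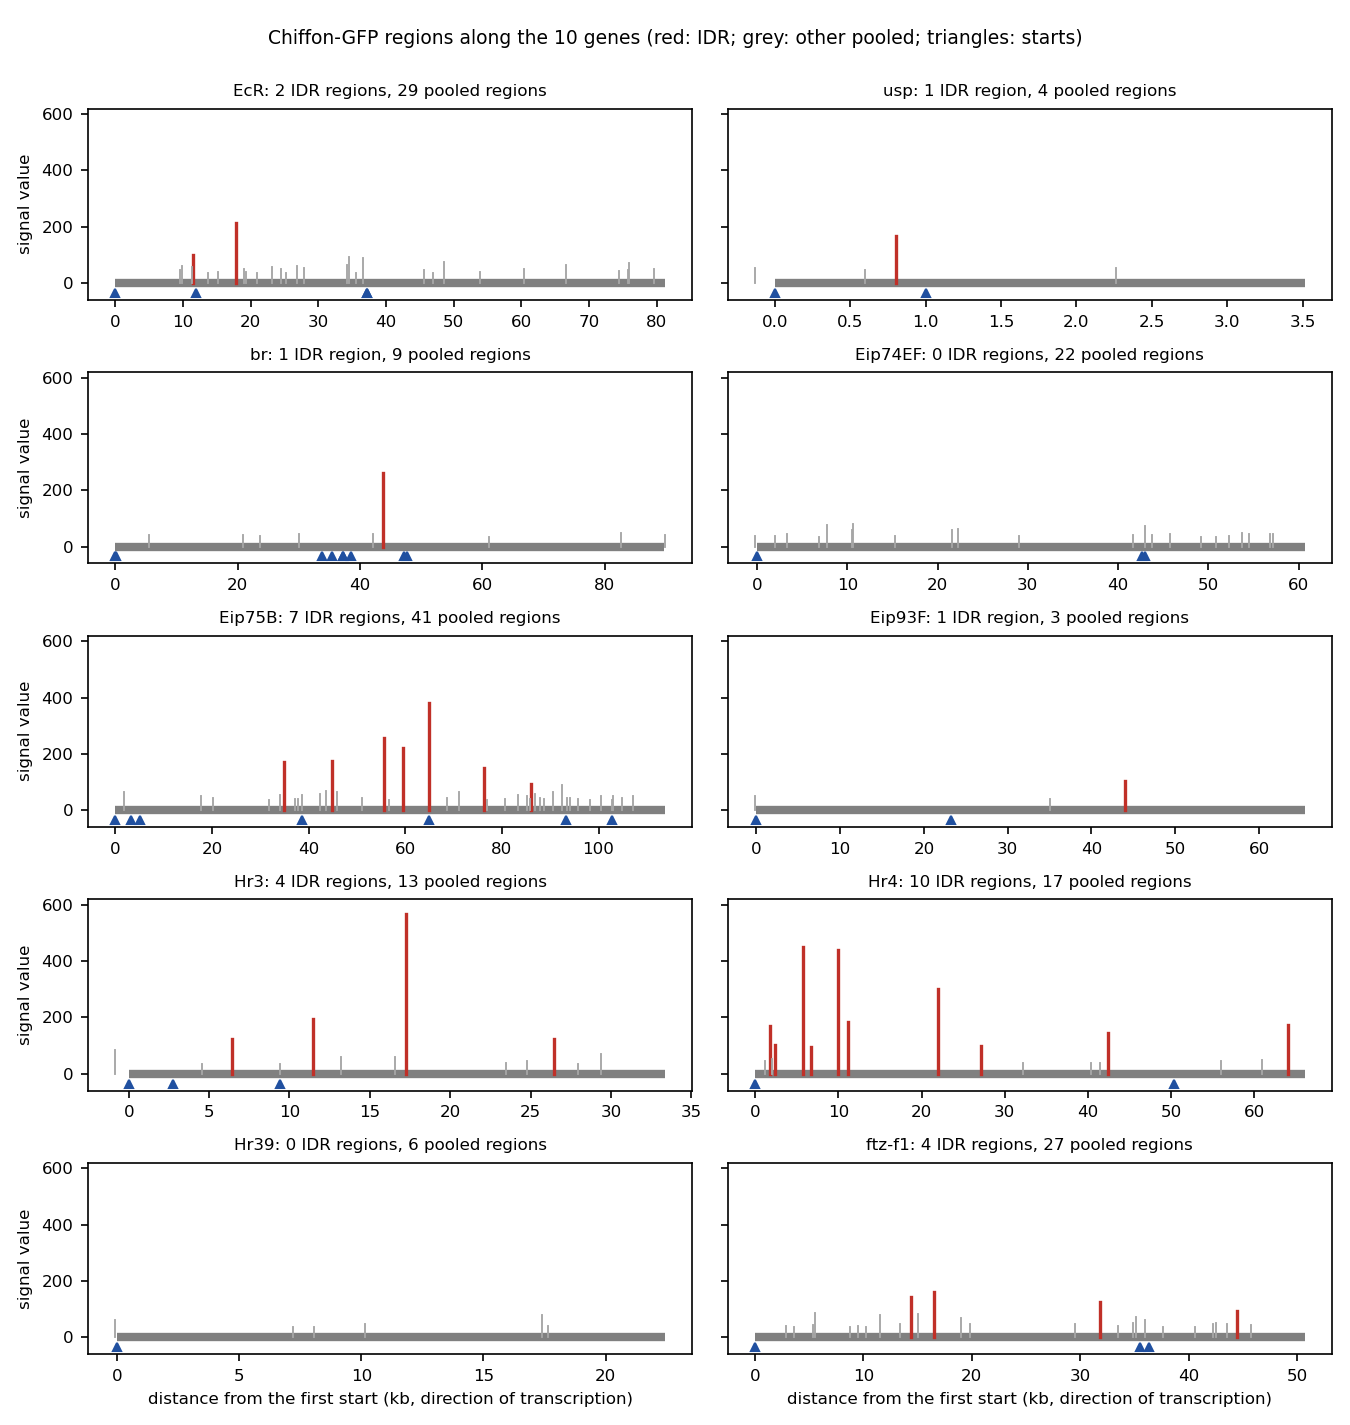
Regions along each of the 10 genes: distance from the first start in kb in the direction of transcription (horizontal) against the authors' signal value (vertical); red lines are IDR regions, grey lines other pooled regions, the grey bar the gene and triangles its starts. Hr4 has most of its regions in the first part of the gene, Eip75B has them in the middle, and br has a single high line.

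Signal values are those of the authors' lists and rank regions within a list only. EcR, the ligand-binding subunit of the receptor, is on chromosome arm 2R (dm6 6087873 to 6169087, minus strand) and has 4 starts. Its 2 IDR regions were both in the upstream part of the gene. Region 1 (6151075 to 6151470) had a signal of 214 and rank 912, and lay in intron 3 of EcR-RA, 5856 bp downstream of the start of EcR-RD and EcR-RE. Its ranks in the 3 replicate lists were 836, 769 and 975, close to each other in lists of 30000. Region 2 (6157366 to 6157761) had a signal of 101 and rank 3207, and its summit was 435 bp upstream of that same start, in intron 1 of EcR-RA. Its replicate ranks were 8141, 1856 and 7314, so it was among the highest 3684 in replicate 2 alone. The start of EcR-RB and EcR-RC had no IDR region, and its strongest pooled region, 594 bp upstream, had a signal of 89.3, just under the lowest value of the IDR list, 92.4. The first start, of EcR-RA, had no pooled summit within 1000 bp.

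The EcR locus also differed in how many regions the replicates listed. Lists of any rank held 8 regions there in replicate 1, 42 in replicate 2 and 41 in replicate 3. Among the highest 3684 the counts were 2, 4 and 4.

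usp, which encodes the partner of EcR and the fly counterpart of the vertebrate RXR receptors, is a short gene on X (2038798 to 2042311, minus strand) with 2 starts. Its region (2041311 to 2041706) had a signal of 166 and rank 1456. The summit was 197 bp upstream of the start of usp-RA and 802 bp downstream of the start of usp-RB, in the 5' UTR of the latter. The ranks were 789, 2494 and 2170 in the 3 replicates, all among the highest. Other genes crowd this position: the summit was also 359 bp upstream of the start of CG4313 and 802 bp downstream of an annotated start of Actn, the alpha-actinin gene. The region cannot be assigned to usp rather than to these neighbours.

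Among the early regulators, br encodes a family of BTB zinc-finger proteins that direct the larval-to-pupal change. It spans X 1575132 to 1664869 on the plus strand with 16 transcripts and 9 starts, and had a single IDR region. The region (1618649 to 1619044) had a signal of 263 and rank 596, with replicate ranks of 594, 638 and 689, close to each other. It lay in intron 1 of br-RN, 3461 bp upstream of the start of br-RS. It also lay within Mur2B, a mucin-related gene nested in br, 692 bp upstream of one of its starts. The next strongest region in br had a pooled signal of 49.4 and rank 11051, so a single high region stood in a locus of 90.7 kb with little else.

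Eip74EF encodes an ETS-domain factor and is on 3L (17558672 to 17619325, minus strand). It had 0 IDR regions and 22 pooled ones. The strongest had a signal of 80.6 and rank 4546, in intron 1 of Eip74EF-RE and 10675 bp downstream of the first start. The pooled region at the downstream starts of Eip74EF-RB and Eip74EF-RD had a signal of 71.4 with its summit 60 bp upstream of the latter. In replicate 2 the region at that start reached rank 3653, just among the highest 3684, and in replicates 1 and 3 no region of the locus did.

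Eip75B encodes E75, a heme-binding nuclear receptor that opposes Hr3. On 3L (17950953 to 18064696, minus strand) it has 7 starts and carried 7 IDR regions and 41 pooled regions. Region 1 (17999588 to 17999983) was the strongest, with a signal of 382, rank 256 and replicate ranks of 378, 378 and 233. Its summit was 35 bp downstream of the start of Eip75B-RC, the closest of all 30 to an own start. The remaining 6 were in introns. Regions 2 to 5 were in intron 3 of the long Eip75B-RF transcript, with signals of 258, 222, 175 and 171, and lay upstream of Eip75B-RC, by 9349 bp for region 2 and 5425 bp for region 3. Regions 6 and 7 were in intron 4, with signals of 148 and 92.9. Neighbouring summits were 3924 to 11410 bp apart along the gene.

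The Eip75B starts differed. The 3 upstream starts, of Eip75B-RF, Eip75B-RE and Eip75B-RB, had no pooled summit within 1000 bp. The start of Eip75B-RA had one of 88.9, below the IDR list, and those of Eip75B-RG and Eip75B-RD had 53.4 and 50.9. Region 5 was absent from replicate 1 at any rank and stood at ranks 1486 and 556 in the other two. Region 7 ranked 3080, 3182 and 13232. The other 5 regions were among the highest in every replicate.

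Eip93F encodes E93, a DNA-binding factor for the removal of larval tissue and the formation of adult structures. On 3R (21949114 to 22014539, plus strand), its single IDR region (21992909 to 21993304) had a signal of 102 and rank 3137. The summit was in intron 3 of Eip93F-RB, 20728 bp downstream of the nearest start, the farthest of the 30 from any gene's start. It ranked 6123 in replicate 1 and 3142 in replicate 2, and replicate 3 had no region there. It was among the highest 3684 in replicate 2 alone. Regions of any rank numbered 14 in replicate 1, 4 in replicate 2 and 1 in replicate 3.

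Among the receptors of the following wave, Hr3 represses early genes and activates ftz-f1. On 2R (10203995 to 10237348, minus strand) its 4 IDR regions were all in intron 1 of Hr3-RD. Region 1 (10219948 to 10220237) had the highest signal of the 30, 568, and rank 102 of 3684. Its replicate ranks were 111, 78 and 120. The summit lay 7907 bp downstream of the start of Hr3-RA, Hr3-RF and Hr3-RH, and within the annotated bodies of CG12912 and CG46321. Regions 2, 3 and 4 had signals of 194, 122 and 122. The summits of regions 2 and 4 were also within both of these bodies, and that of region 3 was within CG12912. Region 4 was 428 bp downstream of the start of a non-coding gene, lncRNA:CR46322, and region 3 fell to rank 5004 in replicate 1. No start of Hr3 had an IDR summit within 1000 bp.

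Hr4, a receptor that tempers the early genes and acts in the hormone-making gland, had the most IDR regions of the 10. It lies on X (1941940 to 2007956, plus strand) with 9 transcripts from 2 starts. Of 13945 genes 5 had more IDR regions in the locus. Regions 1 (1947635 to 1947817) and 2 (1951813 to 1952017) had signals of 449 and 438 and ranks of 171 and 184. Region 1 ranked 291, 219 and 113 in the replicates, and region 2 ranked 266, 237 and 142. They were 183 and 205 bp wide, where 27 of the 30 regions were 396 bp wide. Both were in intron 2 of Hr4-RK, 5807 and 9998 bp downstream of the first start.

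Regions 4, 6, 8 and 10 were in the same intron, so 6 of the 10 lay between 1818 and 11167 bp from the first start. Within this cluster neighbouring summits were 628 to 3361 bp apart. Beyond it came region 3 in intron 3 (signal 301), region 9 in intron 4 (97.3), region 7 in intron 5 (145) and region 5 in the 3' UTR of Hr4-RK (173). Regions 1 to 7 were among the highest in every replicate, while region 8 ranked 1998, 2970 and 8486, region 9 ranked 3062, 3450 and 6229, and region 10 ranked 1705, 3875 and 16721. Replicate 3 was the low one for all 3.

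By the number of IDR regions and then locus length, the protein-coding genes most like Hr4 with its 10 regions in 67.0 kb were px with 9 in 68.8 kb, Raf with 11 in 49.4 kb and pyd with 9 in 105.8 kb. The likeness is in these 2 measures in 1 list only.

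Hr39, a receptor related to Ftz-F1, is on 2L (21237250 to 21259675, plus strand) and had 0 IDR regions and 6 pooled ones. Its strongest, with a signal of 80.2 and rank 4574, was in a coding exon. The region at its only start, 58 bp upstream, had a signal of 61.0. No region of the locus was among the highest 3684 of any replicate.

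ftz-f1 encodes the receptor that makes prepupal tissue competent for the next hormone pulse, and an embryonic form works with the segmentation protein Ftz. On 3L (18750607 to 18801309, minus strand) it carried 4 IDR regions, all in introns, with signals of 159, 143, 126 and 92.8. Regions 1 (18784578 to 18784973) and 2 (18786748 to 18787143) were 2170 bp apart in intron 2 of ftz-f1-RB, 16533 and 14363 bp downstream of the first start, within lncRNA:CR45939. Region 1 ranked 894, 2187 and 2406 and region 2 ranked 2548, 1808 and 1911. Region 3, in the same intron and 3776 bp upstream of the start of ftz-f1-RC and ftz-f1-RD, ranked 3822, 1595 and 4035, and region 4 ranked 9250, 2749 and 2727. The strongest pooled region within 1000 bp of any ftz-f1 start had a signal of 70.7.

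The strongest region of each gene was placed by its percentile in each replicate list, where 100 is the top. Hr3 averaged 99.66 ± 0.0737, Hr4 99.31 ± 0.298, Eip75B 98.90 ± 0.279, br 97.87 ± 0.158 and EcR 97.14 ± 0.350 (SD, n = 3). Then came usp at 93.94 ± 3.02 and ftz-f1 at 93.91 ± 2.72 (SD, n = 3), and Eip93F at 84.56 ± 7.03 in the 2 replicates that had it. Neighbours in this order differed by more than the larger of their SDs except usp and ftz-f1, which did not. All these regions were read in the same 3 replicates and no test was made between genes, so the order is a description.

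**Figure D4:**
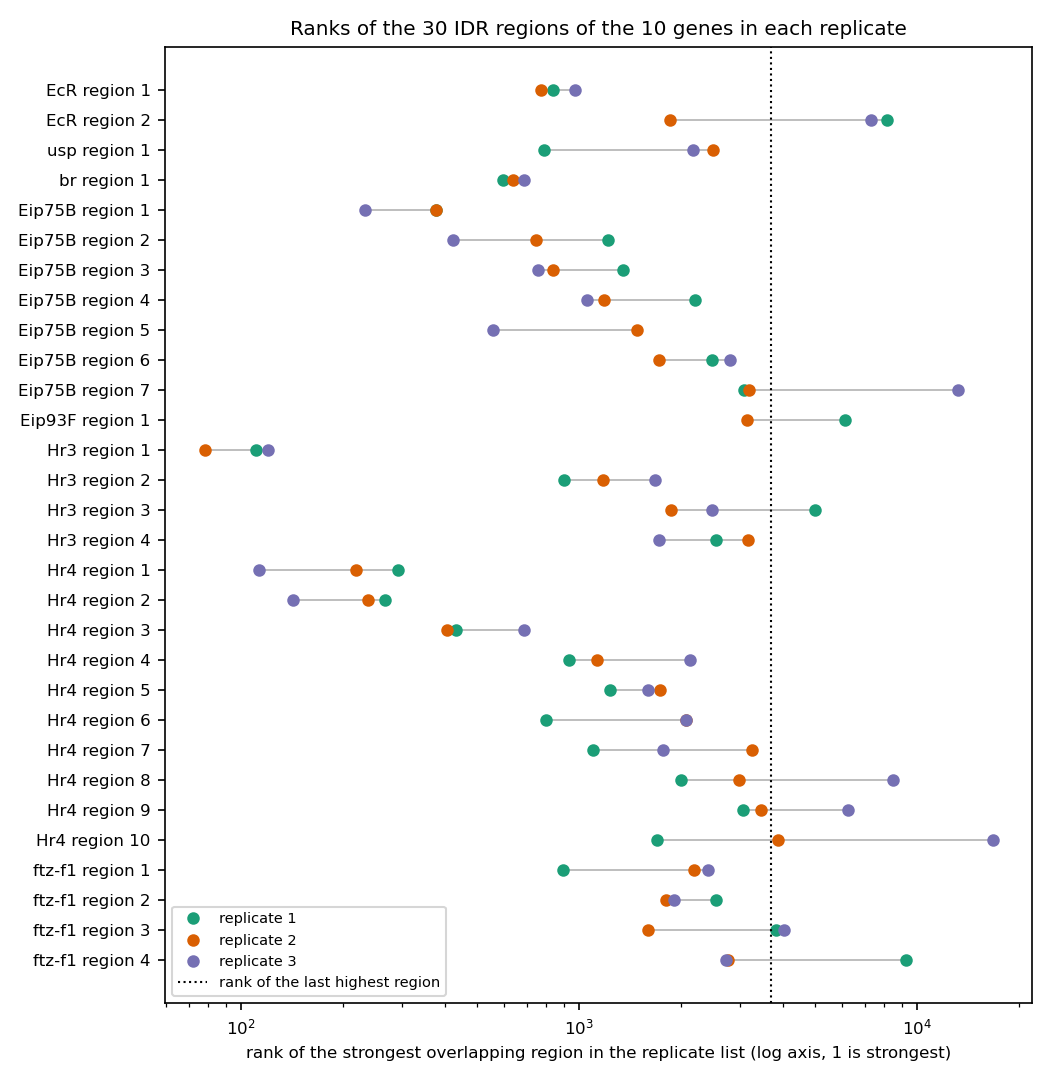
Rank (log axis, 1 is strongest) of the strongest overlapping region in each replicate list for the 30 IDR regions, grouped by gene; the dotted line is rank 3684. Hr3 region 1 and Hr4 regions 1 and 2 stay within the first 291 ranks in all 3 replicates, and Hr4 region 10 spreads from 1705 to 16721.

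Of the 30 IDR regions, 24 (80%) overlapped a highest region of replicate 1, 29 (96.7%) one of replicate 2 and 23 (76.7%) one of replicate 3. The mean share was 84.4% ± 10.7 (SD, n = 3). For all IDR regions the shares were 75%, 85.2% and 83.0%, a mean of 81.1% ± 5.37 (SD, n = 3), so the means differed by less than the spread. All 3 replicates had 20 of the 30 (66.7%), beside 59.1% of all IDR regions. A region of any rank was present in all 3 for 28 of 30. The IDR list is itself selected for reproducibility, and this count was not taken over all IDR regions. Of the pooled regions in the loci 17.5% were IDR regions, beside 14.7% of the whole pooled list. In the long loci without Hr4, chosen after seeing the data, the share was 13.2%, beside 13.7% in all long loci, so the direction of this difference rested on Hr4.

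The weaker regions of the loci were also mostly intronic: of the 141 pooled regions outside the IDR list 107 (75.9%) had summits in introns, beside 27 of the 30 IDR regions (90%). Coding exons held 20 of the 141 (14.2%) and none of the 30. In replicate 1, 22 of the 114 lower-ranked regions (19.3%) were in coding exons, beside 12 of 187 (6.42%) in replicate 2 and 12 of 186 (6.45%) in replicate 3. Among the highest regions of the loci none was in a coding exon in any replicate. Depth could not be read from the lists, and its part in these differences was not tested.

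Other genes of the pathway came from lists chosen with earlier results known. Their counts are read beside the 21.9% of all protein-coding genes that had an IDR region and the 17.6% with an IDR summit near a start. Of 15 genes for hormone synthesis and turnover 1 (6.67%) had an IDR region, mld, a zinc-finger factor needed for a synthesis enzyme, with a signal of 106. Their loci were mostly short, and 3 of the 15 were 30 kb or more. The 10 genes for uptake and receptor coregulators had a median locus of 14.9 kb, and 2 of them were 30 kb or more. Among all protein-coding loci of 10 to 30 kb 41.1% had an IDR region. Of the 10 uptake and coregulator genes 5 (50%) had one. They included Smr, a corepressor of EcR (301), dre4, a subunit of the FACT histone chaperone (155), tai, a coactivator of EcR (134), and Oatp74D, an ecdysone importer (115).

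Of 21 further ecdysone-induced genes 10 (47.6%) had an IDR region, beside 21.9% of all protein-coding genes, and 8 of the 21 had one with its summit within 1000 bp of a start, beside 17.6%. The median locus of these genes was 7.38 kb, and 2 were 30 kb or more. Others, such as E23 at 21.0 kb and ImpL2 at 13.1 kb, lay between 10 and 30 kb. In these 2 classes 52.7% and 41.1% of all protein-coding loci had an IDR region, so the 21.9% is not matched for length. Sox14, which encodes an HMG-box factor, had a signal of 999.8 with replicate ranks of 22, 34 and 20. It was followed by cbt, a zinc-finger factor (541), E23, an ABC transporter (473), and ImpL2, a secreted insulin-binding protein (437). The summits of Sox14, cbt and E23 were 248, 406 and 215 bp upstream of a start. Of 13 other nuclear receptor genes 4 (30.8%) had an IDR region, a share not far from the 21.9% of all genes: Hr96, which acts in cholesterol and xenobiotic response (308), ERR, a regulator of glycolytic genes (212), Hnf4 of fat metabolism (159) and knrl, a relative of knirps (104).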

How the data were processed

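Per the labels, chromatin from 0 to 24 h chif-RA-GFP embryos (fragments of 200 to 800 bp) was pulled down with anti-GFP in 3 biological replicates. The lists, in dm6 coordinates, were deposited in narrowPeak form: 30000 regions for each replicate, 25066 from the replicates together and 3684 in the IDR list, each with a signal value (a score of unstated scale), a −log10 q and a summit offset, all the authors' own values. Depth is unknown (aligner, peak caller and IDR threshold not given in the sources used here). Files in dm3 were not used.

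Regions were assigned with Python 3.11.15 to gene models of Ensembl release 115 (BDGP6.54) by an overlap of at least 1 bp with the gene body or with 1000 bp around any start. The highest 3684 regions of a replicate list were set beside the IDR list. Sequences came from the RefSeq genome of the same assembly, checked by chromosome ends. Assignment was tested on simulated regions. Counts of genes and starts are set beside all protein-coding genes, and counts of regions beside all regions of the same list or those of long loci, with no test. The places of the weaker regions within genes, and the count of IDR regions with a region of any rank in all 3 replicates, were taken for the 10 genes only. The members and gene lists were chosen with earlier results of these data known. Of 70 listed symbols 69 matched, 3 by older names. Named were all 10 genes, up to 4 genes of each further list by signal, genes at a described summit and the 3 most like Hr4. Sequence windows that cover an annotated UTR were replaced or left out.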

Additional observations from a re-analysis of the deposited data

How the results depend on the processing

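With 110 values under alternatives to 28 results, 102 stayed within the replicate spread, the binomial interval or 1.5 times the reported count, and 8 moved. Some could not move: a mean over replicates with 1 left out always stays within the SD of the same replicate values. This holds for the replicate share and for each gene's strongest region, so the tally overstates how stable the results are. Restricting the IDR list to its 1842 strongest regions took the regions in the loci from 30 to 19 and their density from 5.03 to 3.18 per 100 kb, fewer by construction. The density of the long loci without Hr4, added after seeing the data, was 3.79. The share of their pooled regions that were IDR regions, 13.2%, stayed within the binomial interval and is counted as unmoved. It nevertheless fell below the 13.7% of all long loci. The stronger list took uptake and coregulator genes from 5 to 2 and synthesis genes from 1 to 0; with 2000 bp around starts, 3 synthesis genes had a region. With 1842 highest regions per replicate, the replicate share fell to 54.4%. The half-site share of 20% over 200 bp is the remaining one. Keeping only IDR regions among the highest of the remaining replicates, with each replicate left out in turn, gave 7 genes each time and 20 to 23 regions, lowest without replicate 2. The 20 regions without replicate 2 sat exactly at the limit of 1.5 times. The mean share ran from 78.3% to 88.3%. No paired analysis of conditions was possible because there is 1 group. The lists give no counts, so no depth-based limit could be set, and a control library was not analysed here.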
